A study of Mus musculus with 6 samples.

Results

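The genes of oxidative phosphorylation were taken as every non-control probe whose gene name in the scanner files began with Nduf, Uqcr or Atp5, was Sdha, Sdhb, Sdhc or Sdhd, or began with Cox followed by a digit between 4 and 8. This gave 92 genes of 37324 gene names on the array, measured by 143 of 56605 probes. Complex I had 45 genes, complex II had 4, complex III had 8, complex IV had 17 and complex V had 18. The names were those of the array's design, and the rule also took in genes that are not subunits: 7 complex I assembly factors (Ndufaf1 to Ndufaf7), Ndufa4l2, Cox7a2l, and the genes Atp5s, Atp5sl and Atp5c1-ps. Ndufa4 was counted with complex I by its name. No measured value was used to choose them.

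RNA was measured on single-colour Agilent mouse arrays in 3 groups of cells grown from the bone marrow of female C57BL/6J mice aged 6 to 8 weeks, with 2 arrays per group. 6G- BM-MDSC were grown for 4 days with 40 ng/mL GM-CSF in tissue culture dishes, from marrow from which Ly-6G+ cells had been removed with magnetic beads. MDSC (conv.) were grown in the same way from whole marrow, and the labels describe them as a culture that also holds dendritic cells. DCs were grown from whole marrow for 8 days with 20 ng/mL GM-CSF in non-treated dishes. No genetic change or further treatment was given to any group. The cultures are mixtures, so fewer cells of a type and less RNA per cell cannot be told apart in these values. GM-CSF dose, days of culture, dish and the row of the slide all differed between both MDSC groups and DCs, and their parts in a difference from DCs cannot be told apart.

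Oxidative phosphorylation makes most of a resting cell's ATP. Complex I takes electrons from NADH and complex II from succinate, ubiquinone carries them to complex III, and cytochrome c carries them on to complex IV, which passes them to oxygen. Complexes I, III and IV pump protons, and complex V, the ATP synthase, lets them back through a rotating ring of c subunits to make ATP. Most subunits are encoded in the nucleus, a few core subunits in mitochondrial DNA, and several complex IV subunits have forms limited to muscle, heart or testis. Myeloid cells differ in how far they rely on this pathway or on glycolysis, and neutrophils are known for low use of it.

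All values below are log2 signal relative to the 75th percentile of the array, which was an intensity of 560 to 633 units, so that 0 is the level of that percentile. Brightness also depends on the probe, so levels were not compared between genes. The share of probes well above background was 59.1% to 59.9% on the MDSC arrays and lower on the DC arrays (55.6% and 55.7%). No spot was saturated. Of the 92 genes, 88 were well above background, each on all 6 arrays. The other 4 genes, Cox7b2, Cox8b, Cox8c and Ndufa4l2, were not well above background on any array. Cox7b2 is known as a testis form and Cox8b as the heart and muscle form of its subunit.

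The cell type markers separated both MDSC groups from DCs. Against DCs, 9 of 10 neutrophil markers were called higher and 0 lower in each MDSC group. The summed level of these markers was 1149 and 1380 in 6G- BM-MDSC, 1434 and 1393 in MDSC (conv.), and 473 and 454 in DCs, in multiples of the 75th percentile. Ly6g itself had 1.71 and 1.86 in 6G- BM-MDSC, 1.95 and 1.96 in MDSC (conv.), and -1.94 and -2.19 in DCs, so the transcript of the marker used for depletion was above background at the end of the 6G- BM-MDSC culture. Of 9 dendritic cell markers, 8 were called lower in each MDSC group than in DCs, and the remaining one, Flt3, was called higher in 6G- BM-MDSC (0.50, adjusted p = 0.0155). The summed level of the 9 markers was 962 and 882 in 6G- BM-MDSC, 924 and 920 in MDSC (conv.), and 1565 and 1611 in DCs. Transcripts from this marker list were thus present in every group, and which cells they came from was not tested. Of 6 macrophage markers, 5 were called lower in each MDSC group, among them C1qa at -1.08 and -0.54 in 6G- BM-MDSC, -0.74 and -0.73 in MDSC (conv.), and 3.18 and 3.56 in DCs. Of 7 genes of cycling cells, 2 were called higher in each MDSC group than in DCs, and these were Mki67 and Mcm5. All 4 basophil and mast cell markers were called higher than in DCs, as was Hba-a1, the only one of 4 erythroid markers above background. Against DCs, 2 of 5 monocyte markers were called higher in 6G- BM-MDSC, while in MDSC (conv.) 1 was called higher (Ly6c2) and 1 lower (Csf1r). None of the markers was called between both MDSC groups. The part of this cell mixture in the differences described here was not tested.

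The probes are designed sequences of 60 bases, printed 5′ to 3′ so that a reader can see what was measured. The 6 shown are read through without a stop codon in at least 1 frame, and belong to isoform, core subunit, assembly and c subunit genes described below. For Sdhb and Atp5g1 the probe shown is not the brightest one, from which the levels and calls of these genes were taken, and its own difference is given with the other probes of the gene. Coordinates are on mm9, as in the scanner files. The probe of Cox7a1 lies at chr7:30970337-30970948 (plus strand) and that of Sdhb at chr4:140522514-140527081 (plus strand). Both spans are wider than the probe, so these 2 probes cross an exon junction. The others lie at chr19:3908949-3909008 (minus strand, Ndufs8), chr7:104555383-104555442 (plus strand, Ndufc2), chr4:24830285-24830344 (plus strand, Ndufaf4) and chr11:95934924-95934983 (minus strand, Atp5g1). No letters are in capitals, since no part of a probe was singled out.
Cox7a1: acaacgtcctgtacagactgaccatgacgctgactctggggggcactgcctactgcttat
Sdhb: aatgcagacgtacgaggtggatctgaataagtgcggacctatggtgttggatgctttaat
Ndufs8: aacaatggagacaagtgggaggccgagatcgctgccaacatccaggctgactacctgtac
Ndufc2: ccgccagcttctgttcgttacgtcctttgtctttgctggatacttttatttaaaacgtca
Ndufaf4: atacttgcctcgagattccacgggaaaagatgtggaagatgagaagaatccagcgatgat
Atp5g1: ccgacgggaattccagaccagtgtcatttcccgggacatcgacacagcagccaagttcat

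Between both MDSC groups, which asks what removal of Ly-6G+ cells from the starting marrow changed, no oxidative phosphorylation gene passed the test. The median difference of the 88 genes was 0.07 (6G- BM-MDSC minus MDSC (conv.)), against 0.00 over all 21861 genes tested. With the probe used for each gene, the differences ran between -0.22 and 0.24, and all 88 were under 0.25 in size. Other probes of some genes went further, such as 0.81 for Ndufs3 and -0.64 for Cox7c. By limma, 0 members were called higher, where 0.00457% of all genes were, and 0 were called lower, where 0.00915% of all genes were. At an unadjusted limma p under 0.05 there was 1 member, Ndufs7, and 2358 of the 21861 genes. The methods' t-test called 0 members and 0 of all genes after adjustment. At an unadjusted p under 0.05 it had 9 members and 1782 of all genes.

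Most of these small differences pointed one way. Of the 88 genes, 72 (81.8%) were on the positive side, against 50.9% of all genes. For 38 members (43.2%) the 2 arrays of 6G- BM-MDSC were both higher than either of MDSC (conv.), where 22.4% of all genes had this pattern. For 3 members (3.41%) they were both lower, where 21.8% of all genes had that pattern. Genes of 1 pathway vary together between arrays, so these counts describe 4 arrays and are not a test. The lean was found in complex I with 40 of 44 genes positive (median 0.09) and in complex IV with 12 of 14 (median 0.06). Complex V had 11 of 18 genes positive (median 0.05), complex III had 6 of 8 (median 0.04) and complex II had 3 of 4 (median 0.02).

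**Figure D1:**
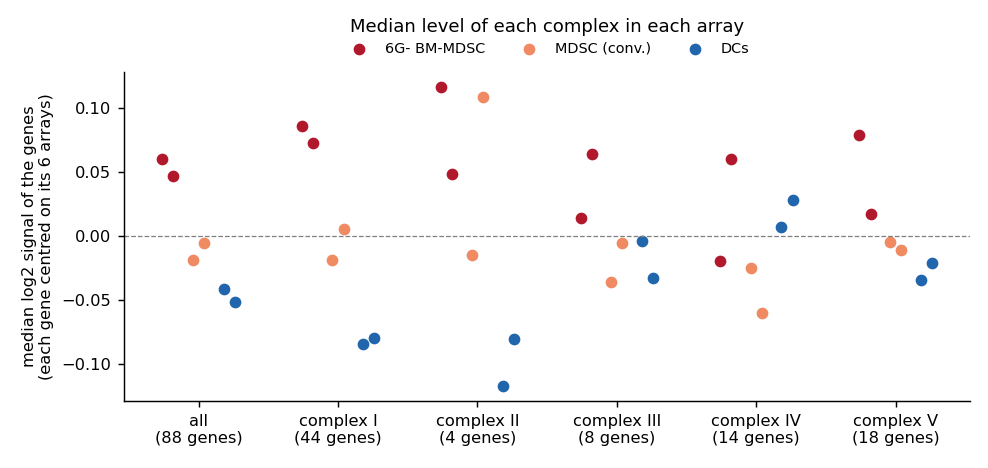
Median log2 signal of the tested genes of each complex in each of the 6 arrays, after each gene was centred on its mean over the arrays. Over all 88 genes the 6G- BM-MDSC arrays sit at 0.06 and 0.05, the MDSC (conv.) arrays at -0.02 and -0.01, and the DC arrays at -0.04 and -0.05. The whole axis covers a small range.

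By its parts, complex I had its largest median between both MDSC groups in the core. Its 7 core subunits, which hold the flavin and iron-sulphur clusters and the ubiquinone site, had a median difference of 0.15, against 0.09 for its 29 accessory subunits and 0.06 for its 7 assembly factors. Ndufs7, which carries the last iron-sulphur cluster before ubiquinone, had 5.54 and 5.47 in 6G- BM-MDSC, 5.26 and 5.28 in MDSC (conv.), and 5.24 and 5.21 in DCs. The 6G- BM-MDSC arrays were thus the highest, and both other groups were close to each other. The difference from MDSC (conv.) was 0.24 ± 0.07 (SE), with a 95% interval of 0.05 to 0.42 and an adjusted p of 0.381 by limma. Ndufs8, an iron-sulphur subunit whose probe is printed above, had 5.47 and 5.34 in 6G- BM-MDSC, 5.15 and 5.25 in MDSC (conv.), and 5.22 and 5.14 in DCs. Its difference from MDSC (conv.) was 0.21 ± 0.09 (SE, adjusted p = 0.488). Ndufv2, which sits beside the flavin, differed by 0.00 between both MDSC groups, with a 95% interval of -0.23 to 0.23.

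**Figure D2:**
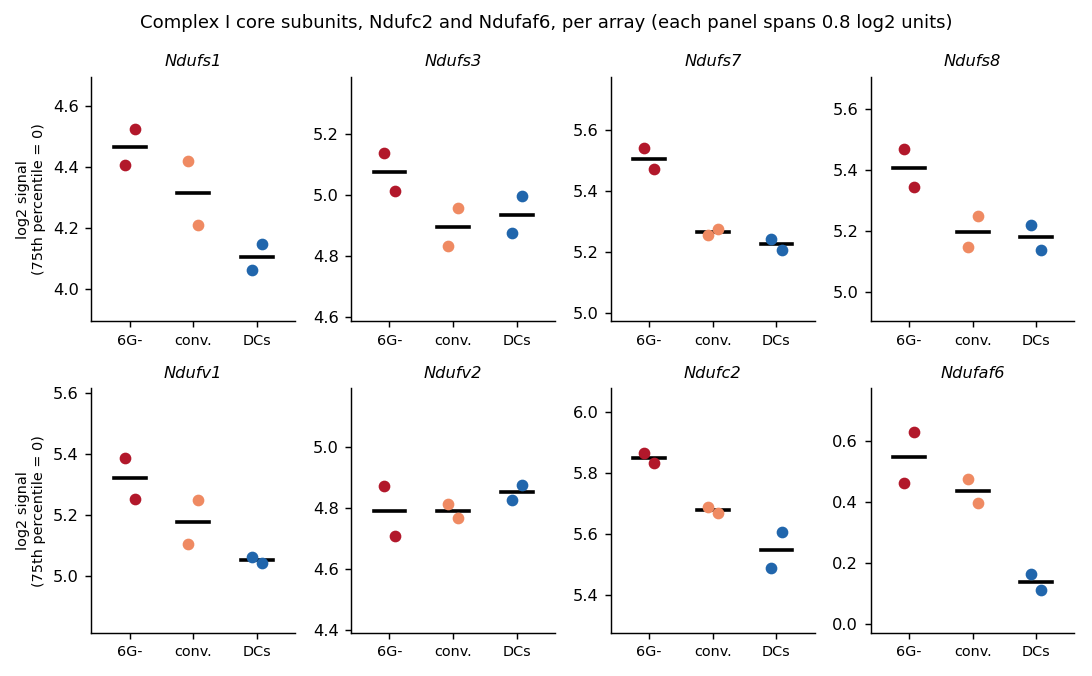
Log2 signal of the core complex I subunits Ndufs1, Ndufs3, Ndufs7, Ndufs8, Ndufv1 and Ndufv2, the accessory subunit Ndufc2 and the assembly factor Ndufaf6 in each array (points) with the group mean (bar), for 6G- BM-MDSC, MDSC (conv.) and DCs from left to right. The 6G- BM-MDSC arrays of Ndufs7 (5.54 and 5.47) lie above all others, whereas those of Ndufv2 overlap with both other groups.

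In the other complexes the genes with the smallest p between both MDSC groups were Sdha (0.03 ± 0.08, SE, adjusted p = 0.916), the small complex III subunit Uqcr10 (0.13 ± 0.09, adjusted p = 0.622), Cox7a2l (0.14 ± 0.10, adjusted p = 0.668) and Atp5g2 (0.18 ± 0.07, adjusted p = 0.470). None of these passed the test. The upper 95% limit was 0.23 for Sdha, 0.36 for Uqcr10, 0.41 for Cox7a2l and 0.37 for Atp5g2, so for the last 3 a difference of the size seen for Ndufs7 lies within the interval. The median SE of a member was 0.08, against 0.11 over all genes.

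Against DCs, which asks how each MDSC culture differs from dendritic cells grown from bone marrow, the members moved less than genes at large, and a few of them stood out. In MDSC (conv.), 2 members (2.27%) were called higher, where 13.4% of all genes were, and 7 (7.95%) were called lower, where 15.8% of all genes were. In 6G- BM-MDSC, 14 members (15.9%) were called higher, where 15% of all genes were, and 7 (7.95%) were called lower, where 17.8% of all genes were. In this fit the share called higher in 6G- BM-MDSC was near that of all genes, and the other shares were below it. Under the alternatives given at the end this did not always hold. The median absolute difference was 0.15 for the members and 0.29 for all genes in 6G- BM-MDSC, and 0.11 and 0.27 in MDSC (conv.). No member differed by 1 or more on the log2 scale in either comparison. Both comparisons use the same 2 DC arrays, so they are not independent. The median difference of the members was 0.08 in 6G- BM-MDSC (all genes -0.04) and 0.04 in MDSC (conv.) (all genes -0.03). Under quantile normalization these medians were 0.14 (all genes 0.0015) and 0.10 (all genes -0.010). The calls were 16 higher and 3 lower in 6G- BM-MDSC, where 3654 of all genes were called higher and 3477 lower. In MDSC (conv.) they were 6 higher and 5 lower, where 3130 and 3244 of all genes were.

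**Figure D3:**
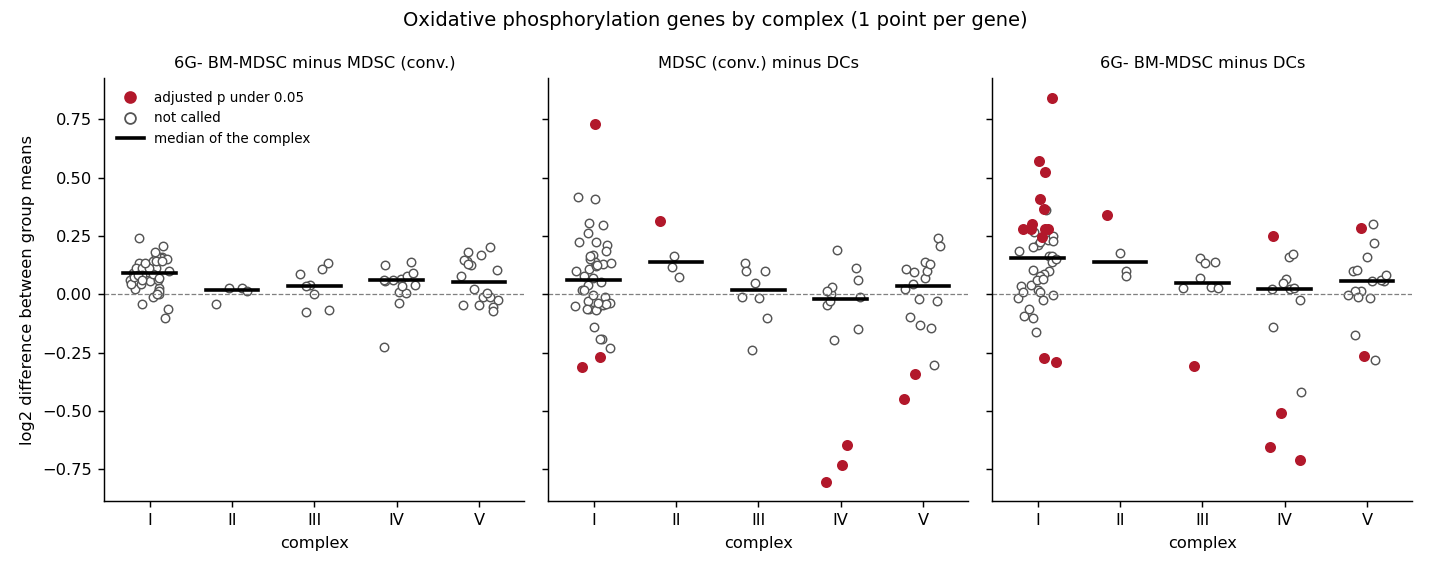
Log2 difference between group means for each of the 88 tested genes, by complex, in the 3 comparisons. Filled points passed an adjusted p of 0.05 and black bars are medians. The left panel holds no filled point, while in the right panel 11 of 14 higher calls lie in complex I, which has 44 of the 88 genes. Complex I here includes Ndufa4 and the assembly factors.

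Ndufa4 had the largest rise of all members. It was named as a complex I subunit and was later found to be part of complex IV. Its level was 4.65 and 4.70 in 6G- BM-MDSC, 4.57 and 4.56 in MDSC (conv.), and 3.86 and 3.81 in DCs. All 4 MDSC arrays were thus above both DC arrays, with replicates close together. The difference from DCs was 0.84 ± 0.07 in 6G- BM-MDSC (1.79-fold, adjusted p = 0.00193) and 0.73 ± 0.07 in MDSC (conv.) (1.66-fold, adjusted p = 0.00292). It was called whichever array was left out, with adjusted p up to 0.0254, but not by the methods' t-test (adjusted p = 0.0609 and 0.0596). That t-test called 66 of all 21861 genes in 6G- BM-MDSC and 7 in MDSC (conv.). Ndufa4l2, the paralogue of Ndufa4, was not well above background on any array.

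In complex IV, 2 of 4 measured tissue forms were called lower in each MDSC group than in DCs, and 0 of the 9 general forms were. Of all genes, 17.8% were called lower in 6G- BM-MDSC and 15.8% in MDSC (conv.). Whether the tissue and general forms differ was not tested, and both sets are small. Cox7a1, the heart and muscle form of subunit 7a, had 0.62 and 0.69 in 6G- BM-MDSC, 0.53 and 0.60 in MDSC (conv.), and 1.23 and 1.50 in DCs. Both MDSC groups were below DCs, with a difference of -0.71 ± 0.11 in 6G- BM-MDSC (adjusted p = 0.0108) and -0.80 ± 0.11 in MDSC (conv.) (adjusted p = 0.00822). Cox7a2, its counterpart in most tissues, had 6.35 and 6.33 in 6G- BM-MDSC, 6.26 and 6.30 in MDSC (conv.), and 6.09 and 6.09 in DCs, so here both MDSC groups lay above. It rose by 0.25 ± 0.07 in 6G- BM-MDSC (adjusted p = 0.0472), and the difference of 0.19 ± 0.07 in MDSC (conv.) was not called (adjusted p = 0.0976). Whether the 2 genes of a pair differ in their response was not tested.

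Cox6b2, the testis form of subunit 6b, had -0.13 and -0.05 in 6G- BM-MDSC, 0.00 and -0.32 in MDSC (conv.), and 0.58 and 0.56 in DCs. Its values were below those of DCs in all 4 MDSC arrays, with a difference of -0.65 ± 0.12 in 6G- BM-MDSC (adjusted p = 0.0179) and -0.73 ± 0.12 in MDSC (conv.) (adjusted p = 0.0141). Cox6b1, the general form, differed from DCs by -0.02 and -0.03, with adjusted p of 0.827 and 0.803. Cox6a2, the muscle form of subunit 6a, was at -2.16 and -2.08 in 6G- BM-MDSC, -2.16 and -1.64 in MDSC (conv.), and -1.79 and -1.61 in DCs, and was not called. Cox4i2, a form known from lung, differed from DCs by 0.07 (95% interval -0.17 to 0.30) and 0.00 (95% interval -0.23 to 0.24). Of the 9 general complex IV subunits, 1 was called, Cox7a2 in 6G- BM-MDSC, and all 9 lay between -0.15 and 0.25 in both comparisons. Cox4i1, Cox5a, Cox6a1, Cox6c, Cox7b, Cox7c and Cox8a were among the 8 not called.

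Cox7a2l encodes a relative of subunit 7a that joins complex III to complex IV in supercomplexes, and C57BL/6 mice are known to carry a shortened, unstable form of this protein. Its transcript had 6.92 and 6.82 in 6G- BM-MDSC, 6.63 and 6.83 in MDSC (conv.), and 7.31 and 7.44 in DCs. The DC arrays were the highest and both MDSC groups overlapped. The difference was -0.51 ± 0.10 in 6G- BM-MDSC (adjusted p = 0.0222) and -0.65 ± 0.10 in MDSC (conv.) (adjusted p = 0.0122).

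**Figure D4:**
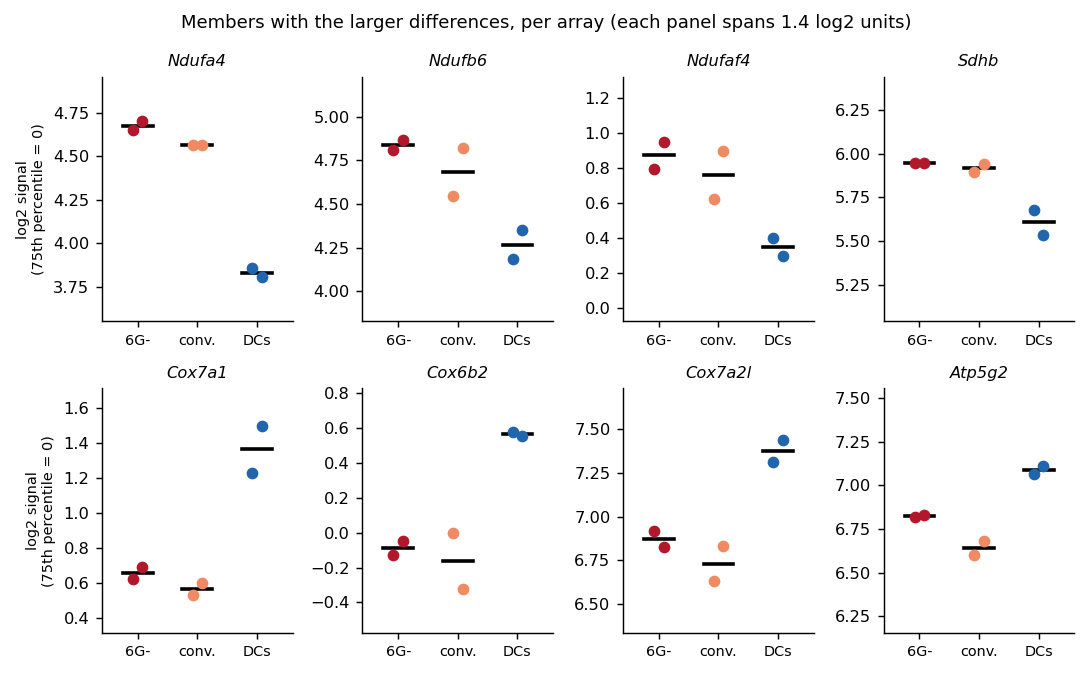
Log2 signal of 8 members with larger differences in each array (points) with the group mean (bar), for 6G- BM-MDSC, MDSC (conv.) and DCs from left to right. The MDSC points of Ndufa4 and Sdhb lie above those of DCs, and those of Cox7a1, Cox6b2, Cox7a2l and Atp5g2 lie below.

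Complex I, with 44 of the 88 tested genes, held 11 of the 14 higher calls of 6G- BM-MDSC against DCs. That is 25% of its genes, where 15% of all genes were called higher. Among its 36 core and accessory subunits alone, 7 (19.4%) were called higher and 2 (5.56%) lower. Complex I held 1 of the 2 higher calls of MDSC (conv.), 2.27% of its genes, where 13.4% of all genes were. This call was Ndufa4, and 0 of the 36 core and accessory subunits were called higher. Of its 44 genes, 35 were on the positive side in 6G- BM-MDSC (79.5%, against 46.7% of all genes) and 26 in MDSC (conv.) (59.1%, against 46.7%). Its median difference was 0.16 in 6G- BM-MDSC and 0.06 in MDSC (conv.). Beside Ndufa4, the called genes of 6G- BM-MDSC were the accessory subunits Ndufb6, Ndufc2, Ndufa8, Ndufa9, Ndufb2 and Ndufab1 (the mitochondrial acyl carrier protein), the core subunit Ndufs7, and the assembly factors Ndufaf4, Ndufaf6 and Ndufaf7.

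Ndufb6, in the membrane arm, had 4.81 and 4.87 in 6G- BM-MDSC, 4.55 and 4.82 in MDSC (conv.), and 4.19 and 4.35 in DCs. All MDSC arrays were above DCs, and the 2 MDSC (conv.) arrays were further apart than those of 6G- BM-MDSC. It rose by 0.57 ± 0.12 in 6G- BM-MDSC (adjusted p = 0.0248), whereas the difference of 0.42 ± 0.12 in MDSC (conv.) was not called (adjusted p = 0.0611). The difference between both MDSC groups was 0.15 ± 0.12 (adjusted p = 0.688), so a call in only 1 group does not separate them.

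Ndufc2, a membrane arm subunit whose probe is printed above, had 5.87 and 5.83 in 6G- BM-MDSC, 5.69 and 5.67 in MDSC (conv.), and 5.49 and 5.61 in DCs, a rise of 0.30 ± 0.08 in 6G- BM-MDSC (adjusted p = 0.0396). Ndufa8 had 3.61 and 3.65 in 6G- BM-MDSC, 3.54 and 3.61 in MDSC (conv.), and 3.38 and 3.32 in DCs, a rise of 0.28 ± 0.07 in 6G- BM-MDSC (adjusted p = 0.0418). In both genes MDSC (conv.) stood in between, close to 6G- BM-MDSC for Ndufa8. The core subunit Ndufs1, which holds several of the iron-sulphur clusters, had 4.41 and 4.52 in 6G- BM-MDSC, 4.42 and 4.21 in MDSC (conv.), and 4.06 and 4.15 in DCs. Its difference of 0.36 ± 0.10 in 6G- BM-MDSC was larger than that of Ndufc2 but was not called (adjusted p = 0.0544).

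Assembly factors build complex I and are not part of the finished enzyme. Ndufaf4 had 0.80 and 0.95 in 6G- BM-MDSC, 0.62 and 0.90 in MDSC (conv.), and 0.40 and 0.30 in DCs, a rise of 0.52 ± 0.12 in 6G- BM-MDSC (adjusted p = 0.0323) and a difference of 0.41 ± 0.12 in MDSC (conv.) that was not called (adjusted p = 0.0657). Ndufaf6 had 0.46 and 0.63 in 6G- BM-MDSC, 0.48 and 0.40 in MDSC (conv.), and 0.16 and 0.11 in DCs, a rise of 0.41 ± 0.09 in 6G- BM-MDSC (adjusted p = 0.0267). Ndufaf7, a methyltransferase, had 2.45 and 2.50 in 6G- BM-MDSC, 2.32 and 2.51 in MDSC (conv.), and 2.16 and 2.07 in DCs. All 3 were higher in each MDSC array than in each DC array. The other assembly factors, Ndufaf1, Ndufaf2, Ndufaf3 and Ndufaf5, differed by -0.05 to 0.15 from DCs and were not called. Of 8 complex I assembly genes with other names, 1 was called higher in 6G- BM-MDSC, Ecsit (0.39 ± 0.09, adjusted p = 0.0265), and 0 in MDSC (conv.).

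A smaller set of complex I accessory subunits was lower than in DCs. Ndufa6 had 6.12 and 6.09 in 6G- BM-MDSC, 6.09 and 6.07 in MDSC (conv.), and 6.42 and 6.37 in DCs. It fell by 0.29 ± 0.07 in 6G- BM-MDSC (adjusted p = 0.0335) and fell by 0.31 ± 0.07 in MDSC (conv.) (adjusted p = 0.0295). Ndufa3 had 6.42 and 6.42 in 6G- BM-MDSC, 6.33 and 6.29 in MDSC (conv.), and 6.58 and 6.58 in DCs, and was called in MDSC (conv.) (-0.27 ± 0.07, adjusted p = 0.0421). Ndufb11 had 5.90 and 5.87 in 6G- BM-MDSC, 5.92 and 5.94 in MDSC (conv.), and 6.16 and 6.15 in DCs, and was called in 6G- BM-MDSC (-0.27 ± 0.07, adjusted p = 0.0369). These are differences of 1.20-fold to 1.24-fold, and the complex held calls in both directions in each MDSC group.

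In complex II, with the probes used, all 4 subunits were on the positive side against DCs in both MDSC groups, and 1 passed the test. Sdhb, the iron-sulphur subunit, had 5.94 and 5.94 in 6G- BM-MDSC, 5.89 and 5.94 in MDSC (conv.), and 5.68 and 5.53 in DCs, with all MDSC arrays above DCs. It rose by 0.34 ± 0.08 in 6G- BM-MDSC (adjusted p = 0.0351) and 0.31 ± 0.08 in MDSC (conv.) (adjusted p = 0.0469). The flavin subunit Sdha had 4.50 and 4.58 in 6G- BM-MDSC, 4.46 and 4.55 in MDSC (conv.), and 4.45 and 4.43 in DCs, differences of 0.10 ± 0.08 and 0.07 ± 0.08 that were not called. The dimmest of its 4 tested probes gave -0.32 in 6G- BM-MDSC and -0.06 in MDSC (conv.). The next dimmest gave -0.10 in MDSC (conv.), and these 3 values were not called. Its remaining probe differences from DCs were positive. The membrane anchor Sdhc differed by 0.18 (95% interval -0.03 to 0.38) and 0.16 (95% interval -0.04 to 0.37), and the other anchor, Sdhd, by 0.08 (95% interval -0.37 to 0.53) and 0.12 (95% interval -0.33 to 0.57). Sdhd had 5.68 and 5.30 in 6G- BM-MDSC, 5.37 and 5.70 in MDSC (conv.), and 5.38 and 5.45 in DCs, so its MDSC replicates were far apart and all groups overlapped.

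In complex III, 1 of 8 subunits was called. Uqcrh, the hinge protein between cytochrome c1 and cytochrome c, had 7.10 and 6.97 in 6G- BM-MDSC, 7.09 and 7.11 in MDSC (conv.), and 7.31 and 7.36 in DCs. It fell by 0.31 ± 0.08 in 6G- BM-MDSC (adjusted p = 0.0420), and the difference of -0.24 ± 0.08 in MDSC (conv.) was not called (adjusted p = 0.0835). The other 7 subunits differed by -0.10 to 0.16 and included the catalytic Rieske protein Uqcrfs1 and the core proteins Uqcrc1 and Uqcrc2.

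In complex V, the genes of the c subunit went separate ways. Atp5g1, Atp5g2 and Atp5g3 encode the same mature c subunit behind different leader peptides. Atp5g2 had 6.82 and 6.83 in 6G- BM-MDSC, 6.60 and 6.68 in MDSC (conv.), and 7.06 and 7.11 in DCs. Its difference from DCs was -0.26 ± 0.07 in 6G- BM-MDSC (adjusted p = 0.0480) and -0.45 ± 0.07 in MDSC (conv.) (adjusted p = 0.0127). Atp5g1 had 6.47 and 6.50 in 6G- BM-MDSC, 6.38 and 6.30 in MDSC (conv.), and 6.23 and 6.17 in DCs, a rise of 0.28 ± 0.07 in 6G- BM-MDSC (adjusted p = 0.0410) and a difference of 0.14 ± 0.07 in MDSC (conv.) that was not called (adjusted p = 0.212). Atp5g3 differed by 0.06 and 0.11 (adjusted p = 0.599 and 0.335). The probes of Atp5g1 and Atp5g2 used here thus had opposite signs in each MDSC group.

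Of the other complex V genes, few were called. Its F1 subunits, the catalytic head and its stalk (Atp5a1, Atp5b, Atp5c1, Atp5d and Atp5e), ran between -0.30 and 0.24 against DCs with no call in either MDSC group. With the probes used, the 7 genes of the membrane part and side stalk ran between -0.13 and 0.20, also with no call. Other probes of these genes went further. Those of Atp5h gave -0.63 and -0.26 in 6G- BM-MDSC, and -0.62 and -0.31 in MDSC (conv.). A dimmer probe of Atp5f1 gave 0.40 in each. Atp5sl, which is a complex I assembly factor despite its name, had 2.71 and 2.61 in 6G- BM-MDSC, 2.47 and 2.52 in MDSC (conv.), and 2.84 and 2.83 in DCs, and was called lower in MDSC (conv.) (-0.34 ± 0.08, adjusted p = 0.0287). Atp5c1-ps is a pseudogene that shares sequence with Atp5c1, so its signal is uncertain. It was not called.

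Several genes were measured by more than 1 probe, and these did not always give the same difference. Among 33 members with 2 or more tested probes, all probes had the same sign for 22 genes in 6G- BM-MDSC against DCs, for 25 in MDSC (conv.) against DCs, and for 20 between both MDSC groups. Atp5a1, the alpha subunit of the F1 head, differed from DCs in 6G- BM-MDSC by 0.06 with the probe used and by 0.62 with the other (adjusted p = 0.0116 over all probes). For Atp5b, the catalytic beta subunit, the 3 probes gave 0.22, 0.42 and 0.51, of which the last 2 were called. A second probe of Ndufa13 gave -0.56 (adjusted p = 0.0118), where the probe used gave 0.02. For Sdhb, the probe printed above gave 0.55 (adjusted p = 0.0196) and the brighter probe 0.34. For Atp5g1, the probe printed above gave 0.27 and the brightest 0.28, whereas the remaining probe gave -0.39 (adjusted p = 0.0275), so that gene was called both ways. For Ndufa3 in MDSC (conv.) against DCs, the 3 probes gave -0.27, -0.44 and 0.24. For Uqcrb, a small complex III subunit, another probe gave 0.97 in MDSC (conv.) against DCs (adjusted p = 0.0190), where the probe used gave 0.14. Probes of 1 gene can read different transcript ends or related sequences, which was not tested.

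**Figure D5:**
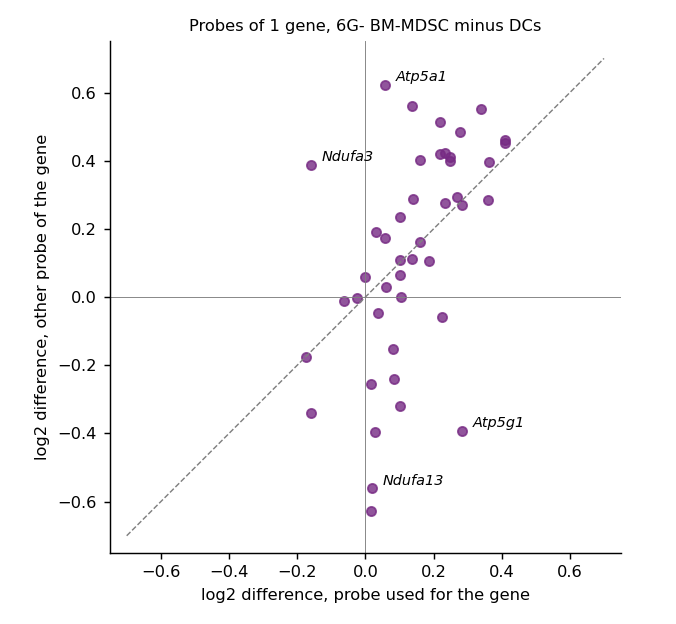
Log2 difference of 6G- BM-MDSC minus DCs for members with 2 or more tested probes, with the probe used for the gene on the horizontal axis and each other probe on the vertical axis. The dashed line marks equal values. Atp5a1 (0.06 and 0.62) and Atp5g1 (0.28 and -0.39) are among the points far from it.

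Genes that work with the 5 complexes were counted from lists of the same kind. Their counts stand beside 15% of all genes called higher and 17.8% lower in 6G- BM-MDSC, and 13.4% higher and 15.8% lower in MDSC (conv.), against DCs. Of the mobile carriers and genes of ubiquinone synthesis, 7 of 13 were called higher and 0 lower in each MDSC group against DCs (medians 0.36 in 6G- BM-MDSC and 0.26 in MDSC (conv.)). Cytochrome c (Cycs) had 5.67 and 5.81 in 6G- BM-MDSC, 5.62 and 5.75 in MDSC (conv.), and 5.25 and 5.26 in DCs, and rose by 0.49 ± 0.09 (adjusted p = 0.0163) and 0.43 ± 0.09 (adjusted p = 0.0242). Cytochrome c1 (Cyc1), a catalytic complex III subunit that the naming rule does not reach, rose by 0.54 ± 0.10 (adjusted p = 0.0152) and 0.54 ± 0.10 (adjusted p = 0.0158). Pdss1, which makes the side chain of ubiquinone, rose by 0.95 ± 0.14 (adjusted p = 0.00805) and 0.75 ± 0.14 (adjusted p = 0.0164). In the tricarboxylic acid cycle, which supplies NADH and succinate, 7 of 17 genes were called higher and 1 lower in 6G- BM-MDSC, and 3 higher and 0 lower in MDSC (conv.). The 3 were Mdh2, Idh3a and Suclg2.

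Other groups around the pathway had fewer calls. Of 20 complex IV assembly genes, 4 were called higher in 6G- BM-MDSC and 3 in MDSC (conv.) against DCs, with 0 lower, so that the shares called higher were near those of all genes (15% and 13.4%). Cox10 and Cox11, which make and deliver cofactors of complex IV, were among them, with differences of 0.54 and 0.40 in 6G- BM-MDSC. Of 5 genes of complex V assembly and regulation, 1 was called lower in each group, the ATP synthase inhibitor Atpif1, which had 7.08 and 7.02 in 6G- BM-MDSC, 7.32 and 7.26 in MDSC (conv.), and 7.63 and 7.69 in DCs (-0.61 ± 0.07 and -0.37 ± 0.07). Of 9 genes of complex II and III assembly, 1 was called higher in 6G- BM-MDSC (Ttc19) and 1 lower in MDSC (conv.) (Sdhaf1). Among 10 supercomplex and cristae genes, which include Cox7a2l, 3 were called lower and 1 higher in each group: Chchd6 and Higd2a fell with Cox7a2l, and Immt rose. Of 15 genes of general mitochondrial content, 4 were called higher in 6G- BM-MDSC and 3 in MDSC (conv.), Hspd1 and Timm23 among them, where 15% and 13.4% of all genes were. Of 9 genes of uncoupling and other electron routes, 2 were called higher in each group, Dhodh and Sqrdl, and 1 lower in MDSC (conv.), the uncoupling protein Ucp2. Sqrdl was well above background on 0 DC arrays, so it entered the test only through the groups in which it was high. Between both MDSC groups, none of these genes was called.

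The genes encoded in mitochondrial DNA did not move together. Of 11 measured, 1 was called higher and 1 lower in each MDSC group against DCs. Cytochrome b, listed as CYTB, had 7.44 and 7.15 in 6G- BM-MDSC, 7.52 and 7.32 in MDSC (conv.), and 6.84 and 6.70 in DCs, a rise of 0.53 ± 0.14 (adjusted p = 0.0422) and 0.65 ± 0.14 (adjusted p = 0.0261). ND6, a complex I subunit and the only one of these encoded on the other strand, had -1.38 and -1.16 in 6G- BM-MDSC, -0.98 and -1.02 in MDSC (conv.), and -0.64 and -0.41 in DCs, with differences of -0.75 ± 0.12 (adjusted p = 0.0115) and -0.47 ± 0.12 (adjusted p = 0.0423), both called lower. Of 9 genes that copy and transcribe mitochondrial DNA, 1 was called higher in 6G- BM-MDSC and 2 in MDSC (conv.). The DNA polymerase Polg was called in both (0.85 ± 0.14 and 0.75 ± 0.14), and the transcription factor Tfam in neither (0.21 and -0.02).

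Regulators of mitochondrial gene expression were also measured. Of 9 above background, 3 were called higher in 6G- BM-MDSC (Nrf1, Nfe2l2 and Myc) and 2 in MDSC (conv.) (Nrf1 and Nfe2l2), with 0 lower. Nrf1, a factor known to bind promoters of respiratory chain genes, had 1.83 and 1.83 in 6G- BM-MDSC, 1.74 and 1.85 in MDSC (conv.), and 1.30 and 1.31 in DCs. It rose by 0.53 ± 0.08 (adjusted p = 0.00811) and 0.49 ± 0.08 (adjusted p = 0.0108). Ppargc1a, Esrrg and Ppara were not well above background on any array.

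Promoters were searched on both strands for the NRF1 motif, in the 250 bases before the first listed start of each gene in RefSeq's GRCm38.p6 annotation. A promoter was listed for 75 of the 92 genes. The motif was found in 13 of them (17.3%), against 1044 of 27025 promoters of that length (3.86%). Of the 13 genes, 7 were in complex I, 2 in complex II, 1 in complex IV and 3 in complex V. The median difference from DCs was 0.10 for these 13 and 0.08 for the 60 tested genes without it in 6G- BM-MDSC, and 0.07 and 0.02 in MDSC (conv.). A second motif, CCGGAAG, which factors of the GABP family can bind, was in 12 of 75 (16%), against 7.05% of all promoters.

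The promoters of Ndufaf4, Atp5g2 and Atp5g1 are printed because the first 2 hold the motif and went opposite ways against DCs, and Atp5g1 is the sister gene of Atp5g2 without it. Capitals mark the NRF1 motif, of which the T in the middle could be any base in the search, and which ends 103 bases before the start of Ndufaf4 and 32 bases before that of Atp5g2. The sequences are from RefSeq, 5′ to 3′ on the gene's strand, at chr4:24897833-24898082 (plus strand), chr15:102671048-102671297 (minus strand) and chr11:96075632-96075881 (minus strand) of GRCm38.p6. A match describes letters and is not evidence of binding.
Ndufaf4: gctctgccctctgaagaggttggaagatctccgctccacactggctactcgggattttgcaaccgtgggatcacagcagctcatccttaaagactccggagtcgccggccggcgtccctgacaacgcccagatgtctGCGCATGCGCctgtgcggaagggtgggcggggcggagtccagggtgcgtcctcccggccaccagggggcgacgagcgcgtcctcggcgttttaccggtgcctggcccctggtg
Atp5g2: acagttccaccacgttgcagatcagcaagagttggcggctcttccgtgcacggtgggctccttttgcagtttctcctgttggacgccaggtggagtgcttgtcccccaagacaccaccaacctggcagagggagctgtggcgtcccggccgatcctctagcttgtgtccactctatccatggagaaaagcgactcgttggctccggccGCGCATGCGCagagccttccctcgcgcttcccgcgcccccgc
Atp5g1: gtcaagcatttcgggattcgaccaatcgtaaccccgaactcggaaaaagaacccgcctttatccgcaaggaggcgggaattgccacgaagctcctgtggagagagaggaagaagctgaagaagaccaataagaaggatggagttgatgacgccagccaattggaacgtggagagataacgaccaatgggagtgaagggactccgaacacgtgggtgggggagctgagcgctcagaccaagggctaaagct

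With 2 arrays per group, most member calls in 6G- BM-MDSC against DCs were lost when an array of either group was left out. In MDSC (conv.) against DCs this held except without MDSC (conv.) replicate 2, where most member calls were kept. Calls over all genes also fell, by a smaller part than member calls except in that last case, where they fell by a larger part. Ndufa4 and Cox7a1 were called against DCs in both MDSC groups whichever of the 6 arrays was left out. In 6G- BM-MDSC against DCs, with 14 higher and 7 lower calls on all arrays, these were the only members called without 6G- BM-MDSC replicate 2, without DCs replicate 1 or without DCs replicate 2, and Ndufaf6 joined them without 6G- BM-MDSC replicate 1. Without either MDSC (conv.) array, which is no part of that comparison, 5 higher and 3 lower calls were left. Over all genes, 2762 higher and 3242 lower calls were left, of 3282 and 3889 on all arrays. In MDSC (conv.) against DCs, Ndufa4, Cox7a1 and Cox7a2l were called without DCs replicate 1, and Ndufa4 and Cox7a1 without DCs replicate 2. Cox6b2 joined the first 3 genes without MDSC (conv.) replicate 1, and Cox6b2 and Atp5g2 without MDSC (conv.) replicate 2.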

How the data were processed

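RNA from 6 samples, 2 for each of 3 groups, was labelled with Cy3 and hybridised to an Agilent mouse array. The deposited files hold the scanner intensity of every spot; the authors read them with Agilent Feature Extraction, which subtracted background and detrended the signal within each array (version 10.7.3.1 in the file headers, 10.5.1.1 in the submitters' notes). The deposited value table holds the same intensity, rounded. Coordinates are on mm9, per the file headers. All arrays lay on 1 slide, with DCs in a row of their own. The precision is limited by the number of arrays. The labels do not say whether the 2 samples of a group came from separate cultures or mice, so p-values measure only the spread between these samples.

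From there, log2 of the processed signal minus each array's 75th percentile of it was used. Control spots and outlier marks were left out, and a probe entered the test if 1 or more groups had it well above background on both arrays, which left 33484 of 56605 probes and 21861 genes. The brightest tested probe stood for a gene. One limma fit (limma 3.58.1, R 4.3.3) on all 6 arrays, with group as the only term, gave the differences, their SE and Benjamini-Hochberg adjusted p over all genes, with a threshold of 0.05. Its steps were tested on simulated data. Of the probes, 58.3% were matched to a current symbol; 3 members have since been renamed (Atp5f1, Atp5s and Atp5sl), and the names of the files were kept. Promoters are from RefSeq (GRCm38.p6).

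For each complex, up to 4 members called in each direction per comparison were named, with the largest differences first, together with all Sdh genes, the tissue isoform pairs, the member with the smallest p where none was called, and up to 4 genes of each other list. Results of single genes withheld from this text are not reported here, while counts over lists include them. The remaining named genes were chosen after their values were seen. The members and lists were chosen with earlier results of these data known. The alternatives were other background corrections, scalings, filters, probe rules, priors, the methods' t-test, the deposited value table, a replicate block, and each array left out.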

Additional observations from a re-analysis of the deposited data

How the results depend on the processing

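Between both MDSC groups, 0 members were called under every alternative run, and without 1 array the median ran from 0.058 to 0.079. In MDSC (conv.) against DCs, where 2 members were called higher and 7 lower, the count called higher was 7 with normexp background correction, 6 with quantile normalization (median 0.101), 4 with only probes above background on all 6 arrays, 6 with probes of a gene averaged, 1 with only the arrays compared, 12 with a prior variance that depends on intensity, and 7 of 132 probes when each probe was taken on its own (median 0.0486). In 6G- BM-MDSC against DCs, where 14 members were called higher and 7 lower, the median was 0.107 with normexp and 0.0670 with probes of a gene averaged, 3 were called lower with quantile normalization (median 0.143), 5 higher and 3 lower with only the arrays compared, 23 higher with the intensity prior, and 24 higher over single probes (median 0.0993). Over all genes, the count called higher in 6G- BM-MDSC was 2762 with only the arrays compared and 3925 with the intensity prior. The main fit had 3282. In MDSC (conv.) these counts were 2460, 3472 and 2925. With normexp, 3936 of all genes were called higher in 6G- BM-MDSC and 3288 in MDSC (conv.). With probes of a gene averaged, these were 3344 and 2999. With only probes above background on all 6 arrays, they were 3063 and 2678 of 19454 genes. With quantile normalization, 3654 were called higher and 3477 lower in 6G- BM-MDSC, and 3130 higher in MDSC (conv.). The standing of the members beside all genes thus changed with the setting. The methods' t-test called 0 members higher and 0 lower in both comparisons with DCs. Of all 21861 genes it called 66 in 6G- BM-MDSC and 7 in MDSC (conv.). At an unadjusted p under 0.05 it had 32 members (6G- BM-MDSC) and 22 (MDSC (conv.)), and 7490 and 7075 of all genes. Leaving out 1 array gave 1 to 5 higher, 1 to 3 lower and a median of 0.077 to 0.0996 in 6G- BM-MDSC against DCs, and 1 to 1 higher, 1 to 5 lower and a median of 0.0277 to 0.0467 in MDSC (conv.) against DCs; fewer arrays leave fewer degrees of freedom, and a lone array is assumed to vary like the other groups.

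With the replicate number as a block, 4 members were called higher and 4 lower in 6G- BM-MDSC against DCs, and 2 and 6 in MDSC (conv.). Over all genes, 3144 were then called higher and 3714 lower in 6G- BM-MDSC, and 2786 and 3177 in MDSC (conv.). The main fit called 3282 and 3889, and 2925 and 3457. The samples share only a number: deviations of same-numbered arrays correlated at 0.125 (MDSC (conv.) and DCs), 0.114 (both MDSC groups) and 0.0416 (6G- BM-MDSC and DCs). Some named genes changed sign with another of their probes where at least 1 of the probes was called. In 6G- BM-MDSC against DCs these were Atp5g1 (-0.39), Dhodh (-0.14), Ttc19 (-0.0372), Phb2 (-0.10) and Timmdc1 (0.28). In MDSC (conv.) against DCs they were Ndufa3 (0.24), Tomm40 (-0.42) and Timmdc1 (0.31). Over all alternatives, values of named members kept direction and call 1410 times, lost a call 156 times, gained one 20 times, changed sign with a call 2 times and crossed 0 with no call under either setting 41 times. The cause of these changes was not tested. Differences under about 0.25 mostly could not be called at this number of arrays.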
